A study of Mus musculus with 24 samples.

Results

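This account sets the hearts of mice carrying the human beta1-Arg389 receptor (ARG) against the hearts of non-transgenic mice (NTG), by gene family and cell process. Its members are the 6 ARG and 6 NTG arrays, chosen by their titles, 12 of the 24 arrays of a study with 6 hearts of each of 4 genotypes. In ARG mice the promoter of the alpha-myosin heavy chain gene drove the cDNA of this receptor in cardiac myocytes, so the transgene was confined by design to 1 of the cell types of the heart, while the arrays read RNA of the whole organ. NTG mice carried no transgene. The other genotypes carried the Gly389 form of the same receptor (GLY) or AC5. GLY is compared with ARG here only to test whether a change differed between the receptor forms. The arrays of all 4 genotypes entered the fits, so GLY and AC5 hearts also shaped the standard errors. All mice were 90 days old, and each array stands for another animal, since the submitters call the 6 of a genotype biological replicates. The sources used here do not say how many founder lines gave the ARG mice.

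The beta1-adrenergic receptor is the main receptor for noradrenaline and adrenaline on heart muscle cells. It couples through the stimulatory G protein to adenylyl cyclase, and the cyclic AMP so made activates protein kinase A, which phosphorylates calcium channels, phospholamban and sarcomere proteins and so raises the rate and force of the beat. Receptor kinases, arrestins and phosphodiesterases turn the signal down. A human polymorphism places glycine or arginine at the position named in the labels, and the arginine form is known to couple more strongly to adenylyl cyclase. Long overexpression of beta1 receptors in mouse hearts is known to lead to enlargement, fibrosis and failure.

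Total RNA was labelled and read on Affymetrix arrays, and each deposited value is a linear ratio to the control level, near 1 in NTG hearts (from 0.0636 to 34.8 over all arrays). Such a ratio tells how a transcript differed between hearts but not how abundant it was, so genes cannot be ranked by level, and whether the markers of heart tissue were present could not be checked. Ratios of a gene are given as the lowest, the median and the highest of the 6 hearts of a genotype. A change is the ARG minus NTG difference of mean log2 ratios ± its standard error (n = 6 hearts per genotype), and its sign is that of ARG relative to NTG. A gene "rose" or "fell" where limma gave an adjusted p (Benjamini-Hochberg, over all 45037 probe sets tested) under 0.05. Each of 18193 genes is read at 1 probe set, picked by its suffix and number and not by its values. Of 132 called genes named here that have several probe sets, 67 had every probe set called the same way, and Pgm1 and Tubb6 had 1 called the other way. The number of hearts limits the precision, with a median standard error of 0.0992.

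Of the 18193 genes, 2064 (11.3%) were called between ARG and NTG, with 772 (4.24%) higher and 1292 (7.1%) lower in ARG hearts. These shares are the background for every count of list members below. The values of ARG and NTG hearts did not overlap for 1373 genes (7.55%). In probe sets, 4355 of 45037 (9.67%) were called, 1818 (4.04%) higher and 2537 (5.63%) lower. With only ARG and NTG arrays in the fit, 5022 probe sets were called. After quantile normalization 2400 probe sets were called, which is named below wherever it ends a call of a named gene or moves a list's count by more than 1.5 times. In genes, quantile normalization gave 400 (2.2%) higher and 817 (4.49%) lower. Counts of 1 or 2 members of a list often moved with the scaling or with 1 heart left out and are given without further reading. Values between hearts of a genotype spread more in ARG (mean SD 0.192) than in NTG (0.143), and most in GLY (0.221). The 3 arrays of low weight named below were ARG replicate 1 (array weight 0.478), GLY replicate 1 (0.354) and GLY replicate 3 (0.312).

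The NTG values centred near 1 separately in replicates 1 to 3 and in replicates 4 to 6, so each set of 3 ARG and 3 NTG hearts was also compared on its own. The GLY and AC5 arrays of the same set were in the fit. The labels name no such sets. Within replicates 1 to 3, 652 genes (3.58%) were called, 142 (0.781%) higher and 510 (2.8%) lower. Within replicates 4 to 6, 1253 (6.89%) were called, 656 (3.61%) higher and 597 (3.28%) lower. In both sets 103 genes (0.566%) were called higher and 292 (1.61%) lower. The test of the difference between the sets called 0 of 18193 genes (limma, interaction contrast; 2788 of 45037 probe sets at an unadjusted p under 0.05), so a call within 1 set only is not read as a difference. In probe sets, 1302 (2.89%) were called within replicates 1 to 3, but 493 without ARG replicate 3, 498 without NTG replicate 3, 561 without NTG replicate 2 and 749 without NTG replicate 1. Within replicates 4 to 6, 2517 (5.59%) were called, but 1155 without ARG replicate 4, 1635 without ARG replicate 5 and 1640 without NTG replicate 6. With only ARG and NTG arrays in the fit, 1459 were called within replicates 1 to 3 and 1762 within replicates 4 to 6. The plot of the families by set shows where the members of 4 of them lay.

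**Figure D1:**
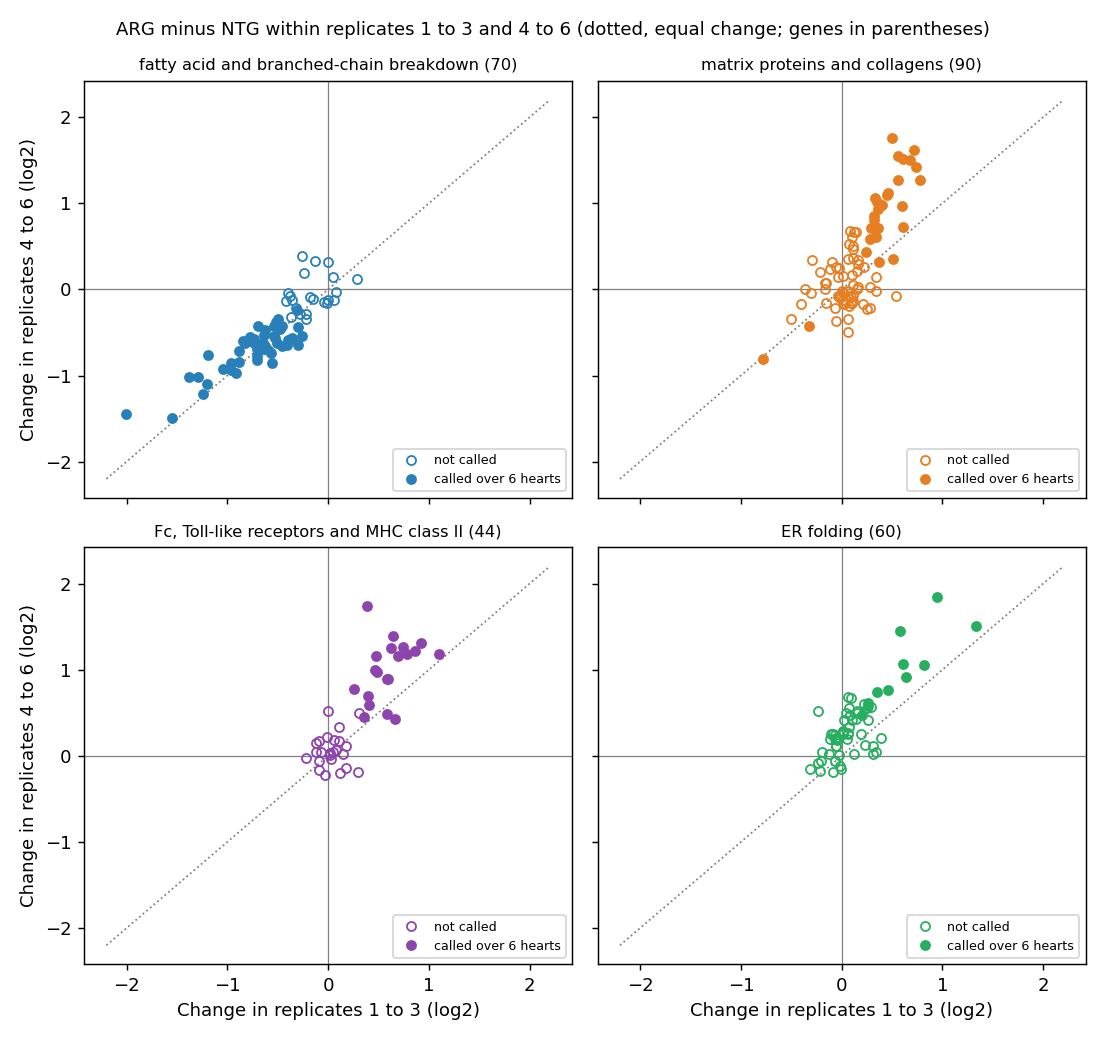
Change of single genes (ARG minus NTG, log2) within replicates 1 to 3 (horizontal axis) against the change within replicates 4 to 6 (vertical axis), each point a gene, for fatty acid and branched-chain amino acid breakdown, for collagens and matrix proteins, for Fc, Toll-like and MHC class II genes, and for endoplasmic reticulum folding genes. Filled points are genes called over all 6 hearts of a genotype, and all of them lie on the same side of 0 in both sets.

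Markers of some cell types moved with the genotype and stand first because they run beside many families. Of 19 macrophage and monocyte markers, 11 rose, 0 fell and 8 were not called, with a median change of 0.57 (0.46 in replicates 1 to 3 and 0.68 in replicates 4 to 6). The median of the markers within a heart lay between 0.25 and 0.72 in ARG hearts, against -0.10 and 0.06 in NTG hearts, and the groups did not overlap. Of 16 endothelial markers, 0 rose, 7 fell and 9 were not called (median -0.28, -0.45 in replicates 1 to 3 and -0.14 in replicates 4 to 6, and -0.17 over all hearts after quantile normalization). Of 15 fibroblast markers, 7 rose, 3 fell and 5 were not called (median 0.29), and of 16 cardiomyocyte markers, 0 rose, 3 fell and 13 were not called (median -0.08). Per-heart medians of endothelial markers lay between -0.54 and -0.12 in ARG hearts, against -0.15 and 0.10 in NTG hearts, with overlap. Those of fibroblast markers (0.04 to 0.38 against -0.12 to 0.07) and cardiomyocyte markers (-0.18 to -0.06 against -0.07 to 0.07) overlapped too. The 13 neutrophil and mast cell and the 14 lymphocyte markers gave no call (limma, adjusted p at or above 0.05). In RNA of a whole heart, fewer cells of a type and less RNA per cell cannot be told apart. The part of these shifts in the results on other genes was not tested.

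Single markers show the size of these shifts. Ms4a7, a membrane protein of macrophages, had ratios of 1.96, 3.57 and 5.9 in ARG hearts, against 0.951, 1 and 1.13 in NTG hearts, and rose by 1.74 ± 0.18 (adjusted p = 2.08e-07) at 1 of 2 probe sets. Every ARG heart lay above every NTG heart. The macrophage marker Adgre1 (F4/80) rose by 0.78 ± 0.11. Among endothelial markers Fabp4, a fatty acid carrier of capillaries and fat cells, fell by 1.73 ± 0.29, Rgcc by 0.82 ± 0.14 and the sialomucin Emcn by 0.46 ± 0.08, while the endothelial adhesion molecule Pecam1 (-0.03 ± 0.12, adjusted p = 0.934) and the receptor Kdr (-0.27 ± 0.12, adjusted p = 0.17) were not called. Of 10 adipocyte markers, 0 rose, 3 fell and 7 were not called, among them the amino acid carrier Slc36a2 (fell by 1.13 ± 0.16). Of 11 mesothelial markers, Aldh1a2, which makes retinoic acid, rose by 1.47 ± 0.23 and Upk3b fell by 0.76 ± 0.16.

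**Figure D2:**
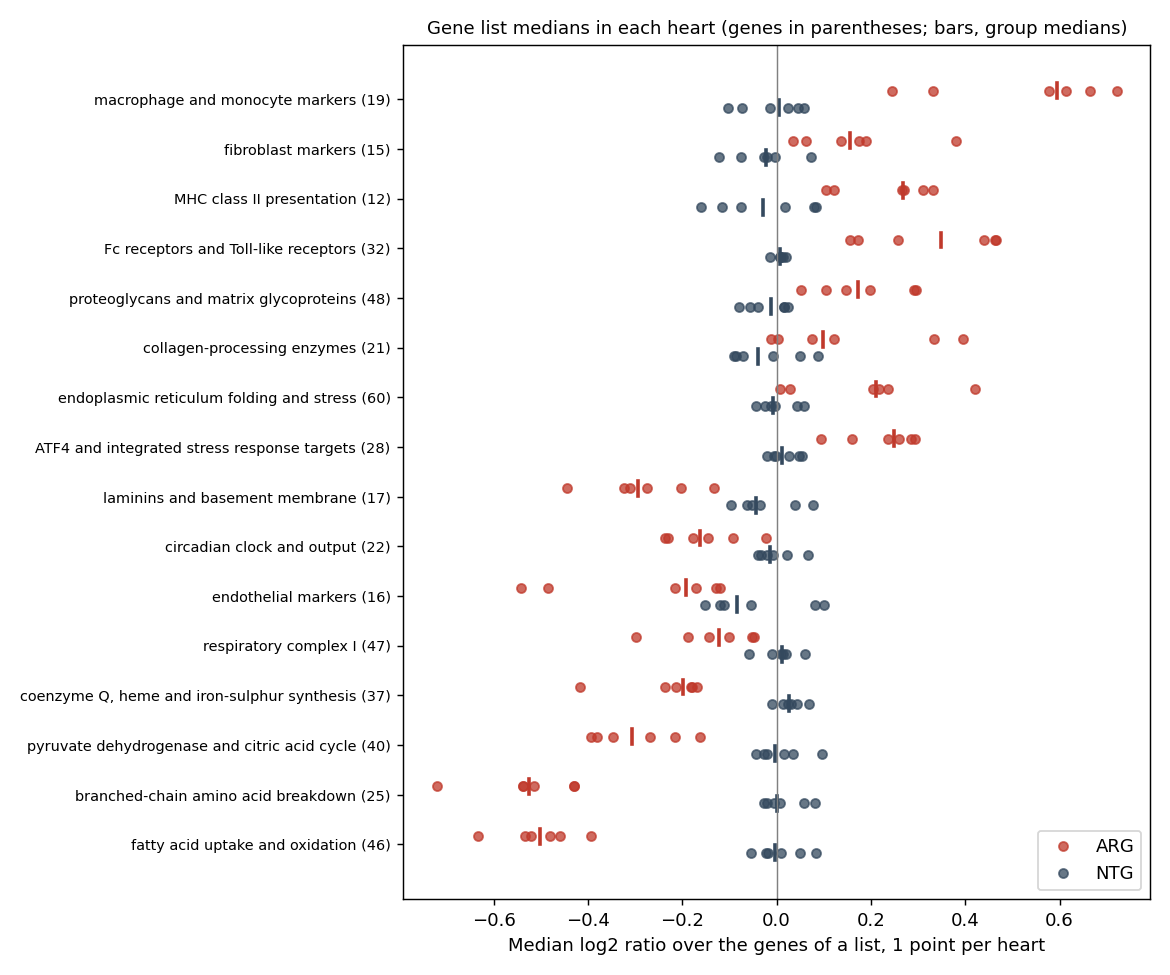
Median log2 ratio of the members of 16 gene lists in each heart (horizontal axis, log2), with the 6 ARG hearts above the 6 NTG hearts of each list. ARG and NTG hearts are apart for fatty acid oxidation, branched-chain amino acid breakdown, the citric acid cycle and macrophage markers.

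Among genes of G protein and cyclic AMP signalling, most rises were among phosphodiesterases, RGS proteins, and receptor kinases and arrestins. Of 17 phosphodiesterases, which break down cyclic nucleotides, 5 rose, 0 fell and 12 were not called, and of 19 RGS proteins, which speed the turning off of G proteins, 4 rose, 0 fell and 15 were not called. Of 11 receptor kinases and arrestins 3 rose, 0 fell and 8 were not called. By contrast, of 10 adenylyl cyclases 0 rose, 1 fell and 9 were not called, of 9 protein kinase A subunits and inhibitors 0 rose, 1 fell and 8 were not called, and of 31 G protein subunits 1 rose, 1 fell and 29 were not called. Of 16 kinase A anchoring proteins 1 rose, 3 fell and 12 were not called. As few as 1 of these fell with 1 heart left out, and 1 rose and 1 fell after quantile normalization. With ARG replicate 2 left out, 3 of the phosphodiesterases rose. The receptor kinases and arrestins that rose numbered as few as 1 when ARG replicate 4 or NTG replicate 5 was left out. After quantile normalization 3 rose and 0 fell among the phosphodiesterases, 2 rose and 0 fell among the RGS proteins and 1 rose and 0 fell among the kinases and arrestins.

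Grk5, a kinase that phosphorylates active receptors, had ratios of 1.94, 2.43 and 2.82 in ARG hearts, against 0.82, 0.992 and 1.09 in NTG hearts, and rose by 1.29 ± 0.16 (adjusted p = 2.83e-06, 1.14 in replicates 1 to 3 and 1.44 in replicates 4 to 6). The lowest ARG heart lay well above the highest NTG heart. Pde3b, a phosphodiesterase that cyclic GMP inhibits, had 1.25, 1.72 and 1.97 in ARG hearts, against 0.857, 0.974 and 1.15 in NTG hearts, and rose by 0.76 ± 0.14 (adjusted p = 0.000433). Pde8a rose by 0.37 ± 0.07 at both probe sets, while Pde3a, a main cardiac phosphodiesterase, was at 0.12 ± 0.09 (adjusted p = 0.578). Rgs19 rose by 0.57 ± 0.12. In the other direction Gnb3, a G protein beta subunit, had 0.455, 0.509 and 0.578 in ARG hearts, against 0.928, 1.04 and 1.24 in NTG hearts, a fall of 1.06 ± 0.11 (adjusted p = 2.08e-07) with no overlap. Akap8, which anchors protein kinase A in the nucleus, fell by 0.56 ± 0.12. Crem, a cyclic AMP-responsive transcription factor, was at 0.44 ± 0.18 (adjusted p = 0.141), and was called higher over the mean of its probe sets (adjusted p = 0.0149) and with array weights (adjusted p = 0.0402). Pde4d, another phosphodiesterase of heart, rose by 0.78 ± 0.10 at the probe set read here, though not over the mean of its probe sets (adjusted p = 0.0529).

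**Figure D3:**
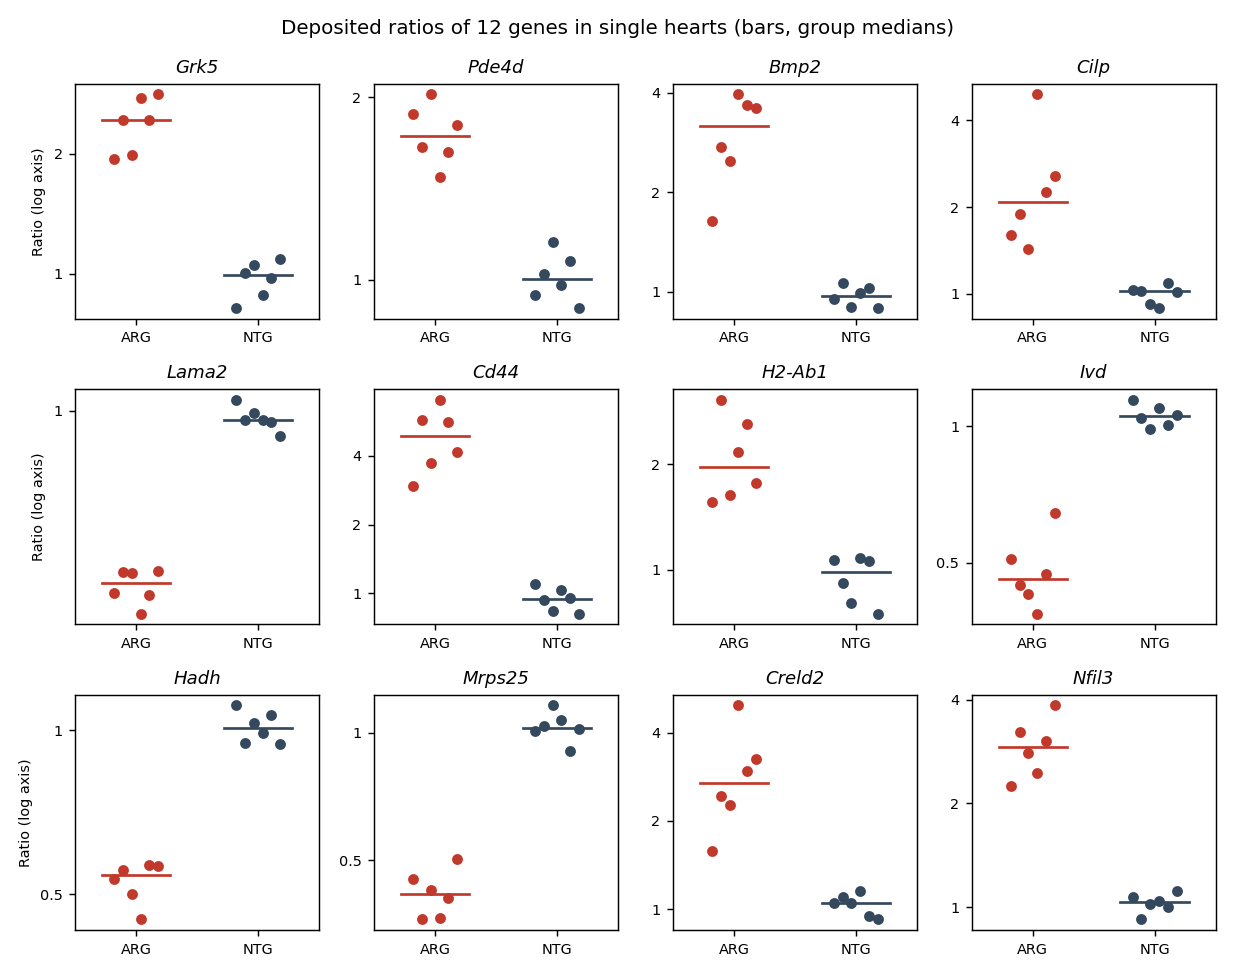
Ratio to the control level (log axis) of 12 genes in each heart, with ARG hearts left of NTG hearts and a bar at the median of the 6 hearts. Grk5, Pde4d, Bmp2, Cilp, Cd44, H2-Ab1, Creld2 and Nfil3 are higher and Lama2, Ivd, Hadh and Mrps25 are lower in ARG hearts, with no overlap of the groups.

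Among growth factor pathways, more genes of the TGF-beta, activin and BMP list rose than fell. Of 46 genes of the TGF-beta, activin and BMP pathway, 10 rose, 3 fell and 33 were not called. The shares that rose and fell were 21.7% and 6.52%, against 4.24% and 7.1% of all genes. Bmp2, a bone morphogenetic protein, had ratios of 1.64, 3.15 and 3.96 in ARG hearts, against 0.893, 0.974 and 1.07 in NTG hearts, and rose by 1.58 ± 0.23 (adjusted p = 3.93e-05). All 6 ARG hearts lay above the highest NTG heart. Fstl1, a secreted follistatin-like protein, rose by 0.88 ± 0.13, Bambi, a decoy receptor for BMP and activin, by 0.87 ± 0.14, and the activin subunit Inhbb by 0.79 ± 0.13. The ligand Tgfb3 (0.58 ± 0.13), the inhibitory Smad7 (0.48 ± 0.10) and the corepressor Tgif1 (0.50 ± 0.11) rose too. Tgfb1 was at 0.21 ± 0.16 (adjusted p = 0.546) and Tgfb2 at 0.21 ± 0.12 (adjusted p = 0.352), and Tgfb2 was called higher over the mean of its probe sets (adjusted p = 0.00315). After quantile normalization 9 rose and 0 fell among this list.

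Of 45 ligands and receptors of the EGF, FGF, PDGF and VEGF families, 1 rose, 7 fell and 37 were not called. Here the shares that rose and fell were 2.22% and 15.6%, against 4.24% and 7.1% of all genes. Angpt1, a ligand that stabilizes vessels, had ratios of 0.317, 0.494 and 0.795 in ARG hearts, against 0.778, 1.01 and 1.37 in NTG hearts, and fell by 0.99 ± 0.20 (adjusted p = 0.00154). The groups overlapped slightly. The epidermal growth factor gene Egf fell by 0.64 ± 0.12, the VEGF coreceptor Nrp1 by 0.49 ± 0.11 and Vegfa by 0.43 ± 0.09. In the IGF axis (17 genes, 1 rose, 3 fell and 13 were not called) Igfbp3, a carrier of IGF, fell by 0.88 ± 0.12, while Igf1 was at 0.43 ± 0.14 (adjusted p = 0.0549, and between 0.0126 and 0.0448 without ARG replicate 1, ARG replicate 5 or NTG replicate 6). Of 42 Wnt genes, 3 rose (7.14%), 2 fell (4.76%) and 37 were not called, against 4.24% and 7.1% of all genes. Of the called genes, Sfrp1 rose by 0.75 ± 0.15 and Sfrp2 by 0.98 ± 0.26, and Wif1, which binds Wnt ligands, fell by 1.49 ± 0.20. In the IL-6 family (27 genes, 4 rose, 4 fell and 19 were not called) Il6 rose by 0.53 ± 0.12 and Ctf1, the gene of cardiotrophin-1, fell by 0.66 ± 0.11. Without ARG replicate 2, 3 or 4 or NTG replicate 1, 2, 3, 4 or 6, as few as 1 of the IL-6 family genes fell. After quantile normalization 1 rose and 4 fell among the EGF, FGF, PDGF and VEGF list and 3 rose and 1 fell among the IL-6 family, and Vegfa was no longer called. Nrp1 was not called over the mean of its probe sets (adjusted p = 0.195).

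Some genes of the interstitial matrix rose and several of the basement membrane fell in the same hearts. Of 48 proteoglycans and matrix glycoproteins, 16 rose, 2 fell and 30 were not called (median 0.23), and of 42 collagens 10 rose, 0 fell and 32 were not called, with a median of 0.04. Of 21 collagen-processing enzymes 6 rose, 0 fell and 15 were not called. Of 17 laminins and basement membrane genes 0 rose, 5 fell and 12 were not called (median -0.22, -0.34 in replicates 1 to 3 and -0.26 in replicates 4 to 6). The per-heart median of the basement membrane list lay between -0.44 and -0.13 in ARG hearts, against -0.10 and 0.08 in NTG hearts. Within replicates 1 to 3 alone 3 proteoglycan and glycoprotein, 1 collagen and 0 collagen-processing genes rose, and within replicates 4 to 6 alone 17, 10 and 6, against 0.781% and 3.61% of all genes. No member of these lists was called in the test of the difference between the sets. Of the 15 fibroblast markers 7 rose and 3 fell in these hearts, and their part in the matrix results was not tested.

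Cilp, a matrix protein of cartilage and fibrotic heart, had ratios of 1.44, 2.07 and 4.92 in ARG hearts, against 0.893, 1.02 and 1.09 in NTG hearts, and rose by 1.17 ± 0.20 (adjusted p = 0.000169). 1 ARG heart, at the highest value, stood well above the other 5. Tnc, tenascin C of wounds, rose by 0.91 ± 0.16, the thrombospondin Thbs4 by 0.66 ± 0.10 and Thbs1 by 0.79 ± 0.15. Efemp1, the gene of fibulin-3, fell by 0.79 ± 0.20. Among collagens Col14a1 rose by 0.77 ± 0.14, Col5a2 by 0.64 ± 0.13 and Col8a1 by 0.79 ± 0.19. The collagen chaperone Serpinh1 rose by 0.72 ± 0.14, the prolyl hydroxylases P3h2 and P4ha1 by 0.90 ± 0.15 and 0.60 ± 0.13, and the crosslinking enzyme Lox by 0.63 ± 0.15. Fibronectin (Fn1) was at 0.31 ± 0.12 (adjusted p = 0.114) at the probe set read here, but was called higher over the mean of its probe sets (adjusted p = 0.000906), with array weights (0.0273) and without the 3 arrays of low weight (0.0281). Col8a1 was not called over the mean of its probe sets (adjusted p = 0.132).

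Lama2, the laminin chain that ties heart muscle cells to their basement membrane, had ratios of 0.594, 0.642 and 0.663 in ARG hearts, against 0.936, 0.976 and 1.03 in NTG hearts, and fell by 0.62 ± 0.07 (adjusted p = 1.1e-06). The 6 ARG hearts lay in a narrow band under all NTG hearts, and the change was the same in both sets (-0.62 and -0.62). Lamb1 fell by 0.57 ± 0.11, Lamb3 by 0.85 ± 0.11 and Egflam, whose product binds dystroglycan, by 0.89 ± 0.10. Of 22 matrix metalloproteinases and Timps 5 rose, 1 fell and 16 were not called. Mmp12, the elastase of macrophages, rose by 1.04 ± 0.14 and Mmp14 by 0.67 ± 0.13, while Timp4, the inhibitor most typical of heart, fell by 1.00 ± 0.25 at 1 of 2 probe sets. Mmp2 was at 0.11 ± 0.10 (adjusted p = 0.61). Of 49 ADAM and ADAMTS proteases 2 rose, 3 fell and 44 were not called, with Adamts4 rising by 0.50 ± 0.09 and Adamts1 and Adamts7 falling by 0.74 ± 0.11 and 0.69 ± 0.11. The ADAM and ADAMTS shares that rose (4.08%) and fell (6.12%) were close to those of all genes (4.24% and 7.1%). After quantile normalization 3 rose and 1 fell among the metalloproteinases and Timps.

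Several tubulins rose, and most intermediate filament and actin genes were not called. Of 16 tubulins 6 rose, 1 fell and 9 were not called. Tubb2b had ratios of 1.53, 2 and 2.9 in ARG hearts, against 0.85, 1.01 and 1.21 in NTG hearts, a rise of 1.03 ± 0.17 (adjusted p = 0.000178) without overlap, and Tubb5 and Tuba1a rose by 0.70 ± 0.14 and 0.66 ± 0.11. Tubb6 rose by 0.71 ± 0.11 at the probe set read here and its other probe set was called lower. Tuba4a fell by 0.47 ± 0.10. Of 58 intermediate filament genes 4 rose, 2 fell and 52 were not called. Krt18, a keratin of simple epithelia, had 2.23, 3.18 and 4.43 in ARG hearts, against 0.848, 0.98 and 1.19 in NTG hearts, and rose by 1.71 ± 0.20 (adjusted p = 1.68e-06). Vim, vimentin of mesenchymal cells, rose by 0.73 ± 0.11, and Krt10 fell by 0.60 ± 0.12. Desmin (Des) was at 0.38 ± 0.16 (adjusted p = 0.167), and was called higher over the mean of its probe sets (adjusted p = 0.0444). Of 13 calcium-binding S100 proteins 4 rose, 1 fell and 8 were not called, with S100a10 rising by 1.16 ± 0.13 and S100a1, the form of heart muscle, falling by 0.37 ± 0.09. Of 57 actins and actin-binding regulators 7 rose, 5 fell and 45 were not called, and Lcp1, the plastin of white blood cells, rose by 0.85 ± 0.18. After quantile normalization 3 rose and 4 fell among the actin list. With ARG replicate 4 or 5 left out, as few as 4 of the actin genes and regulators rose. Acta2, smooth muscle actin, was at 0.23 ± 0.10 (adjusted p = 0.189) at the probe set read here and was called higher over the mean of its probe sets (adjusted p = 9.87e-05).

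A part of the immune genes of myeloid cells rose, while most cytokines and the class I presentation genes gave few calls. Of 32 Fc and Toll-like receptors 15 rose, 0 fell and 17 were not called (median 0.24, 0.22 in replicates 1 to 3 and 0.39 in replicates 4 to 6), of 12 MHC class II genes 5 rose, 0 fell and 7 were not called, and of 25 complement genes 8 rose, 1 fell and 16 were not called. Of 33 chemokines 9 rose, 1 fell and 23 were not called, of 22 chemokine receptors 3 rose, 0 fell and 19 were not called, and of 29 cathepsins and cystatins 4 rose, 0 fell and 25 were not called. In contrast, of 98 interleukins, TNF family members and their receptors 9 rose, 1 fell and 88 were not called, and of 14 class I presentation genes 1 rose, 1 fell and 12 were not called. The Fc and Toll-like list lay between 0.16 and 0.47 in ARG hearts, against -0.01 and 0.02 in NTG hearts, in its per-heart median. Within replicates 1 to 3 alone 3 Fc and Toll-like, 1 class II, 0 complement and 4 chemokine genes rose, and within replicates 4 to 6 alone 13, 5, 9 and 8, with no member called in the test of the difference between the sets. Many of these genes are made by macrophages, whose markers rose in the same hearts (11 of 19), and the part of that shift was not tested.

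H2-Ab1, a chain of MHC class II, had ratios of 1.57, 1.96 and 3.06 in ARG hearts, against 0.75, 0.987 and 1.08 in NTG hearts, and rose by 1.14 ± 0.24 (adjusted p = 0.00187). H2-Aa and the invariant chain Cd74 rose by 1.12 ± 0.24 and 0.98 ± 0.18. The antibody receptor Fcgr3 had 1.64, 2.13 and 2.86 in ARG hearts, against 0.929, 1.02 and 1.08 in NTG hearts, a rise of 1.04 ± 0.13 (adjusted p = 4.98e-06) with all ARG hearts above all NTG hearts. Tlr4, the receptor for endotoxin, rose by 1.00 ± 0.25 and Tlr8, a receptor for RNA, by 0.73 ± 0.10. The chemokines Ccl9 (1.64 ± 0.21), Ccl6 (1.38 ± 0.24) and Ccl2 (0.88 ± 0.11) rose, and Ccl11, eotaxin, fell by 0.48 ± 0.11. The protease Ctss, which trims the invariant chain, rose by 1.45 ± 0.20 and Ctsc by 0.74 ± 0.13. The complement receptors C3ar1 and C5ar1 rose by 1.05 ± 0.19 and 0.55 ± 0.09, and Cd59a, an inhibitor of complement lysis, fell by 0.38 ± 0.08. After quantile normalization 1 rose and 0 fell among the chemokine receptors, 2 rose and 0 fell among the cathepsins and 5 rose and 1 fell among the interleukin list. The interleukin and TNF family genes that rose numbered as few as 5 when ARG replicate 4 or NTG replicate 2 was left out. Without ARG replicate 4, 1 of the chemokine receptors rose.

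Of 58 interferon-induced genes 11 rose, 3 fell and 44 were not called. After quantile normalization 6 rose and 1 fell. Ifi202b, an interferon-induced protein that binds DNA, had ratios of 1.01, 1.72 and 2.76 in ARG hearts, against 0.657, 0.948 and 1.14 in NTG hearts, and rose by 0.90 ± 0.19 (adjusted p = 0.00252). The lowest ARG heart lay within the NTG range. The myeloid factor Irf8 rose by 0.69 ± 0.14, while Irf3, which starts the interferon response to nucleic acid, fell by 0.49 ± 0.12. Other members were not called, such as Mx1 (-0.04 ± 0.08, adjusted p = 0.856) and Ifit1 (0.22 ± 0.35, adjusted p = 0.824). Of 40 lysosomal membrane, acidification and hydrolase genes 4 rose, 2 fell and 34 were not called: the ganglioside activator Gm2a rose by 0.82 ± 0.13 and the proton pump subunit Atp6v1h by 0.63 ± 0.14, and another pump subunit, Atp6v1b2, fell by 0.52 ± 0.09, though not over the mean of its probe sets (adjusted p = 0.0935). Of 17 genes of hyaluronan and galectins 5 rose, 1 fell and 11 were not called, among them Tnfaip6, a hyaluronan-binding protein of inflammation (rose by 0.95 ± 0.12) and Lgals4 (fell by 0.84 ± 0.12). After quantile normalization 3 rose and 1 fell among that list.

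Many genes that burn fuel in mitochondria fell in ARG hearts. Of 46 genes of fatty acid uptake and oxidation 0 rose, 31 fell and 15 were not called (median -0.54, -0.53 in replicates 1 to 3 and -0.54 in replicates 4 to 6). Of 25 genes of branched-chain amino acid breakdown 0 rose, 18 fell and 7 were not called (median -0.50, -0.50 in replicates 1 to 3 and -0.58 in replicates 4 to 6), and of 40 genes of pyruvate dehydrogenase and the citric acid cycle 1 rose, 19 fell and 20 were not called (median -0.31). The shares that fell were 67.4%, 72% and 47.5%, against 7.1% of all genes. The per-heart median of the fatty acid list lay between -0.63 and -0.39 in ARG hearts, against -0.05 and 0.08 in NTG hearts, and that of the branched-chain list between -0.72 and -0.43 in ARG hearts, against -0.03 and 0.08 in NTG hearts. In replicates 1 to 3 alone 22 fatty acid and 13 branched-chain genes fell, and in replicates 4 to 6 alone 27 and 16.

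In fatty acid oxidation falls were found at successive steps of the route. Among genes of carnitine-dependent entry to the mitochondrion, Cpt2 fell by 0.74 ± 0.10 and the carnitine carrier Slc25a20 by 0.54 ± 0.11. Cpt1b and Acsl1 could not be read, since neither matched a probe set assigned to a single gene. The acyl-CoA dehydrogenases for very long, long, medium and short chains fell as well: Acadvl by 0.65 ± 0.07, Acadl by 0.45 ± 0.07, Acadm by 0.65 ± 0.13 and Acads by 0.79 ± 0.13. Hadh, a later dehydrogenase for short chains, had ratios of 0.45, 0.542 and 0.564 in ARG hearts, against 0.942, 1.01 and 1.11 in NTG hearts, and fell by 0.95 ± 0.09 (adjusted p = 5.71e-08) at all 3 probe sets. Every ARG heart lay far below every NTG heart. The large subunit Hadha of the trifunctional protein fell by 0.70 ± 0.08, the peroxisomal enzyme Ehhadh by 0.94 ± 0.10, and Etfdh, which hands the electrons to the respiratory chain, by 0.56 ± 0.10. The uptake protein Cd36 was at -0.13 ± 0.17 (adjusted p = 0.772).

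For the breakdown of leucine, isoleucine and valine, genes of most measured steps were lower. The dehydrogenase complex that commits these amino acids fell at its subunits Bckdha (1.16 ± 0.13), Bckdhb (0.50 ± 0.08) and Dbt (0.98 ± 0.17). Ivd, which acts next on leucine, had ratios of 0.385, 0.459 and 0.644 in ARG hearts, against 0.986, 1.05 and 1.14 in NTG hearts, and fell by 1.15 ± 0.09 (adjusted p = 6.11e-09). No ARG heart reached the lowest NTG heart. Acat1, which also works in ketone body use, fell by 1.23 ± 0.11 at all 3 probe sets, and Pccb, which carries propionate towards the citric acid cycle, by 0.91 ± 0.08. In that cycle Cs, citrate synthase, fell by 0.67 ± 0.10, Sdha by 0.47 ± 0.11, Fh1 by 0.45 ± 0.08 and Dlst by 0.49 ± 0.09. Over the means of their probe sets Sdha and Dlst were not called (adjusted p = 0.0856 and 0.384). Pdk3, a kinase that switches pyruvate dehydrogenase off, rose by 0.51 ± 0.12, while the better known cardiac Pdk4 was at 0.10 ± 0.18 (adjusted p = 0.842).

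The respiratory chain was lower at some subunits and factors and not at most. Of 47 genes of complex I 0 rose, 13 fell and 34 were not called, of 46 of complexes III and IV 1 rose, 8 fell and 37 were not called, and of 34 of ATP synthase and the nucleotide carriers 2 rose, 4 fell and 28 were not called (medians -0.13, -0.16 and -0.09). Foxred1, an assembly factor of complex I, had ratios of 0.517, 0.656 and 0.76 in ARG hearts, against 0.979, 1.03 and 1.06 in NTG hearts, and fell by 0.67 ± 0.08 (adjusted p = 1.89e-06). The groups did not overlap. Uqcc1, which helps to build complex III, fell by 0.82 ± 0.09, the ATP synthase assembly factor Atpaf1 by 0.66 ± 0.10, and the phosphate carrier Slc25a3 by 0.67 ± 0.14 at 1 of 2 probe sets. Core subunits Ndufs1 and Ndufv1 fell by 0.60 ± 0.13 and 0.42 ± 0.07. The adenine nucleotide carrier of heart, Slc25a4, fell by 0.69 ± 0.13 at 1 of 4 probe sets. The carrier form of dividing cells, Slc25a5, rose by 0.45 ± 0.11 at all 8.

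**Figure D4:**
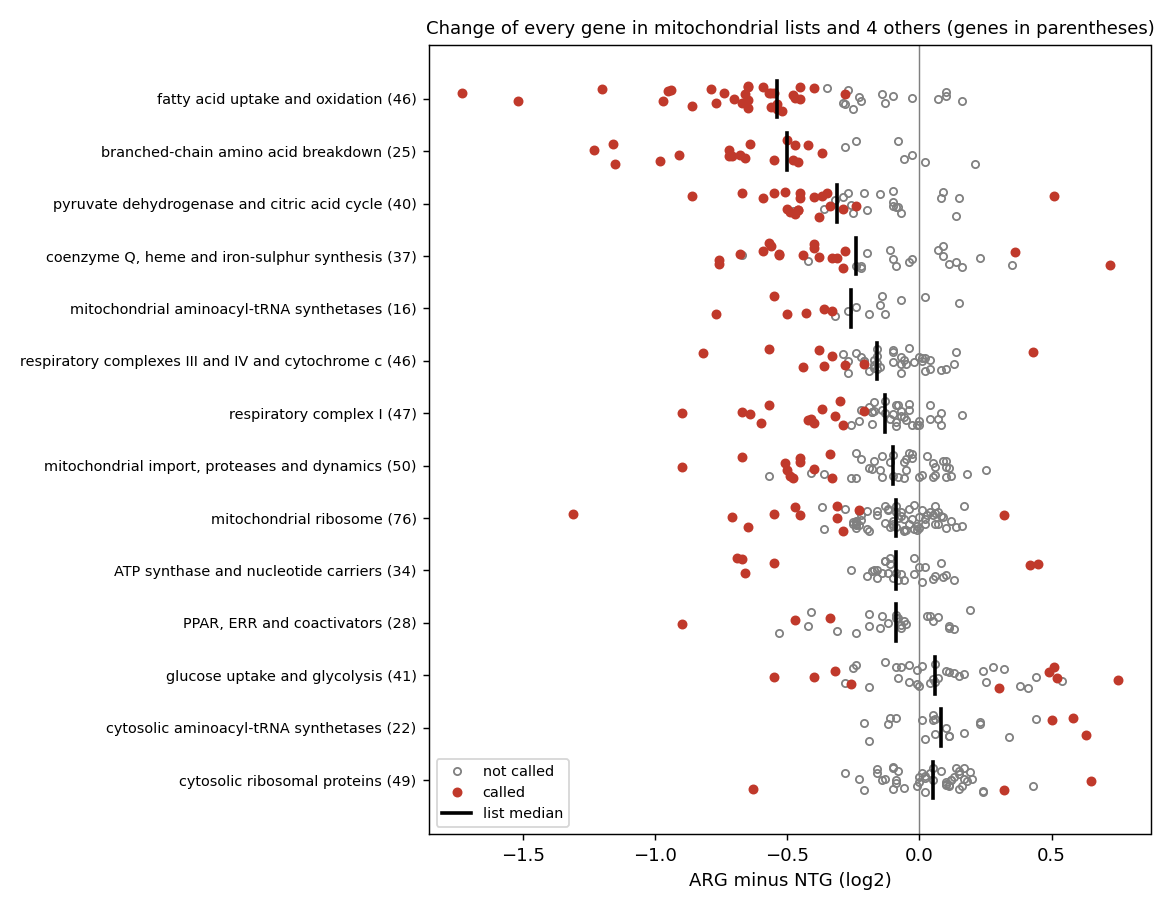
Change of every member (ARG minus NTG, log2, horizontal axis) in 14 mitochondrial and fuel lists, each point a gene, with called genes filled. Fatty acid oxidation and branched-chain amino acid breakdown lie furthest below 0, and glycolysis and the cytosolic synthetases lie around 0.

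Some genes that build and maintain mitochondria fell. Of 37 genes of coenzyme Q, heme and iron-sulphur synthesis 2 rose, 16 fell and 19 were not called (median -0.24). Coq2, which joins the ring and tail of coenzyme Q, fell by 0.76 ± 0.10, Alad of heme synthesis by 0.76 ± 0.10, and Nfs1, which supplies sulphur for iron-sulphur clusters, by 0.68 ± 0.08. Hmox1, which breaks heme down, rose by 0.72 ± 0.11. Of 76 mitochondrial ribosomal proteins 1 rose, 10 fell and 65 were not called, of 16 mitochondrial aminoacyl-tRNA synthetases 0 rose, 6 fell and 10 were not called, and of 50 genes of import, proteases and dynamics 0 rose, 11 fell and 39 were not called. Mrps25, a protein of the small ribosomal subunit, had ratios of 0.363, 0.416 and 0.503 in ARG hearts, against 0.904, 1.03 and 1.16 in NTG hearts, and fell by 1.31 ± 0.09 (adjusted p = 1.22e-09) at all 3 probe sets. Other ribosomal proteins fell less, such as Mrpl49 (0.71 ± 0.07) and Mrpl9 (0.65 ± 0.10), and 65 of the 76 were not called. The leucine synthetase Lars2 fell by 0.77 ± 0.09, the chaperone Hspd1 by 0.67 ± 0.15, and Clpx, the unfolding part of a matrix protease, by 0.90 ± 0.15 at 1 of 2 probe sets. After quantile normalization 0 rose and 3 fell among the mitochondrial synthetases. Pink1, a kinase that marks damaged mitochondria, fell by 0.57 ± 0.08.

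Few regulators of these genes were called. Of 28 PPAR, ERR and coactivator genes 0 rose, 3 fell and 25 were not called. With only ARG and NTG arrays in the fit 6 of them fell, and without the 3 arrays of low weight 7 fell. Ppara was at -0.15 ± 0.11 (adjusted p = 0.556), Ppargc1a at 0.05 ± 0.18 (adjusted p = 0.936) and Esrra at 0.13 ± 0.09 (adjusted p = 0.512). Mlxipl, a glucose-sensing factor also called ChREBP, had ratios of 0.41, 0.509 and 0.617 in ARG hearts, against 0.871, 0.949 and 1.05 in NTG hearts, and fell by 0.90 ± 0.11 (adjusted p = 3.04e-06) with no overlap. Rxrg, a partner of PPAR receptors, fell by 0.47 ± 0.09. Of 41 genes of glucose uptake and glycolysis 5 rose, 4 fell and 32 were not called, with Pgam1 rising by 0.75 ± 0.13 and Phkb, a subunit of phosphorylase kinase, falling by 0.55 ± 0.11. Pgm1 rose by 0.52 ± 0.12 at the probe set read here while its other probe set was called lower. The insulin-responsive carrier Slc2a4 was at -0.28 ± 0.10 (adjusted p = 0.0646, and 0.0452 without ARG replicate 1), and 2 rose and 2 fell among that list after quantile normalization. With NTG replicate 4 left out, 2 of the glycolysis genes fell.

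Genes that store lipid and that handle NAD changed in both directions. Of 44 triglyceride, phospholipid and lipid droplet genes 4 rose, 7 fell and 33 were not called. Dgat2, which makes triglyceride, had ratios of 0.409, 0.493 and 0.591 in ARG hearts, against 0.81, 0.973 and 1.25 in NTG hearts, and fell by 1.00 ± 0.13 (adjusted p = 4.14e-06). The 6 ARG values lay under all NTG values. The droplet coat protein Plin5 fell by 0.56 ± 0.10 and Gpam, the first enzyme of glycerolipid synthesis, by 0.50 ± 0.08, while the eicosanoid genes Ptgis (0.84 ± 0.14) and Alox5ap (0.62 ± 0.12) rose. Of 35 NAD and nucleotide genes 4 rose, 6 fell and 25 were not called. Nnt, which passes hydride between NADH and NADPH, had 0.45, 0.565 and 0.641 in ARG hearts, against 0.95, 1.01 and 1.11 in NTG hearts, and fell by 0.88 ± 0.09 (adjusted p = 1.71e-07) at all 3 probe sets. The mitochondrial deacylase Sirt3 fell by 0.72 ± 0.10 and adenosine kinase, Adk, by 0.74 ± 0.11. The NAD and nucleotide genes that rose numbered as few as 2 when ARG replicate 3 or 4 or NTG replicate 1 or 3 was left out. After quantile normalization 2 rose and 4 fell among the NAD list. Of 31 genes of cholesterol and fatty acid synthesis 2 rose, 2 fell and 27 were not called.

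Targets of ATF4, the factor of the integrated stress response, rose in part. Of 28 such genes 10 rose, 3 fell and 15 were not called (median 0.19, 0.18 in replicates 1 to 3 and 0.21 in replicates 4 to 6). Asns, which makes asparagine, had ratios of 2.23, 3.04 and 4.73 in ARG hearts, against 0.703, 1.03 and 1.13 in NTG hearts, and rose by 1.67 ± 0.25 (adjusted p = 4.19e-05). The lowest ARG heart lay far above the highest NTG heart. Chac1, which degrades glutathione, rose by 1.34 ± 0.21, the factor Atf5 by 1.25 ± 0.29, Nupr1 by 0.93 ± 0.14 and the leucine carrier subunit Slc7a5 by 0.99 ± 0.23. Ddit4, an inhibitor of mTOR, fell by 0.90 ± 0.18, and Stc2 fell by 0.47 ± 0.08. The factor itself, Atf4, was at 0.11 ± 0.13 (adjusted p = 0.739) and Ddit3 (CHOP) at -0.02 ± 0.10 (adjusted p = 0.952). After quantile normalization 6 rose and 3 fell.

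Some genes of amino acid supply rose, while cytosolic ribosomal proteins rose at a share (4.08%) near that of all genes (4.24%). The shares that rose were 18.2% of the serine and one-carbon genes, 12.8% of the amino acid transporters and 13.6% of the cytosolic synthetases. Of 22 genes of serine, glycine, one-carbon and asparagine synthesis 4 rose, 1 fell and 17 were not called, and of 47 amino acid transporters 6 rose, 1 fell and 40 were not called. Of 22 cytosolic aminoacyl-tRNA synthetases 3 rose, 0 fell and 19 were not called, while of the 16 mitochondrial ones 6 fell and 0 rose. Gars, the glycine synthetase, rose by 0.58 ± 0.14, and Eef1e1, a partner of the synthetase complex, by 0.50 ± 0.09. Of 49 cytosolic ribosomal proteins 2 rose, 1 fell and 46 were not called, and Rps27l, a target of p53, rose by 0.65 ± 0.11. The ribosomal proteins that rose numbered 4 without ARG replicate 1 and 4 with only ARG and NTG arrays in the fit. Without the 3 arrays of low weight 8 rose, a setting that called 2754 of all probe sets higher, against 1818. Eif4e, which binds the cap of mRNA, fell by 0.56 ± 0.13, and Myc rose by 0.83 ± 0.15. Without ARG replicate 4 or 5 or NTG replicate 2 or 3, as few as 2 of the serine and one-carbon genes rose. With ARG replicate 6 left out, 3 of the amino acid transporters rose. After quantile normalization 2 rose and 1 fell among the serine list and 3 rose and 1 fell among the transporters.

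Some genes of protein folding in the endoplasmic reticulum rose, and most were not called. Of 60 such genes 11 rose, 0 fell and 49 were not called (median 0.19, 0.07 in replicates 1 to 3 and 0.25 in replicates 4 to 6). Within replicates 1 to 3 alone 4 members of the list rose, and within replicates 4 to 6 alone 10. The per-heart median of the list lay between 0.01 and 0.42 in ARG hearts, against -0.04 and 0.06 in NTG hearts, with overlap. The unfolded protein response is known to switch these genes on through the factors ATF6 and XBP1, which bind the endoplasmic reticulum stress response element, 2 short blocks held a fixed distance apart. In windows from 250 bases before to 50 bases after the RefSeq gene start (GRCm38.p6), the letters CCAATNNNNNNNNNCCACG on either strand were found in 10 of 51 members with a window (19.6%), against 20 of 14452 genes with a window (0.138%). Of the 10 with a match, Creld2, Derl3 and Calr rose, and Hspa5, Canx (change 0.06 ± 0.20), Dnajc3 (0.34 ± 0.22), Ero1b (0.22 ± 0.09), Hsp90b1 (0.32 ± 0.22), Pdia6 (0.08 ± 0.11) and Syvn1 (0.06 ± 0.15) were not called. Among these, Hspa5 and Ero1b were called with only ARG and NTG arrays in the fit (adjusted p = 0.0185 and 0.0341), and Dnajc3 was without the 3 arrays of low weight (adjusted p = 0.0322). This motif and the E-box below were chosen for print after 9 motifs had been searched in 15 lists. The other motifs were the ERR, cyclic AMP, amino acid, STAT, PU.1, D-box and glucocorticoid response elements. A match is a description of letters, not a proven site. Of the 4 windows shown so that the spacing of the blocks can be seen, 3 belong to the members that rose and the last to Hspa5, the main chaperone of the compartment, whose call depended on the alternative. Capitals mark the match, which reads as the reverse complement in some windows, and each window is printed 5′ to 3′ on the strand of its gene. Creld2 lies at chr15:88819396-88819695 (plus strand), Derl3 at chr10:75893148-75893447 (plus strand), Calr at chr8:84846882-84847181 (minus strand) and Hspa5 at chr2:34771840-34772139 (plus strand).
Creld2: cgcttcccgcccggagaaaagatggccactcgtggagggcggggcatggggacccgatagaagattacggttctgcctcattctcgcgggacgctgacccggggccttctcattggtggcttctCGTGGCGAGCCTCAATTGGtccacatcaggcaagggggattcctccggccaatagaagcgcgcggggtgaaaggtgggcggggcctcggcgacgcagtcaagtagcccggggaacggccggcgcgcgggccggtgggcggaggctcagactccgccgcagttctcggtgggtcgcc
Derl3: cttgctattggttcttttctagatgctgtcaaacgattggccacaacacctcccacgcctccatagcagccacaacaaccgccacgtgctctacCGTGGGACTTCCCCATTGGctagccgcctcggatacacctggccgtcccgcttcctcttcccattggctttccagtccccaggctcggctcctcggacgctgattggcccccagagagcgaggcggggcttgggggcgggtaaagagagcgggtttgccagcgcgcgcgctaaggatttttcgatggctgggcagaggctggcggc
Calr: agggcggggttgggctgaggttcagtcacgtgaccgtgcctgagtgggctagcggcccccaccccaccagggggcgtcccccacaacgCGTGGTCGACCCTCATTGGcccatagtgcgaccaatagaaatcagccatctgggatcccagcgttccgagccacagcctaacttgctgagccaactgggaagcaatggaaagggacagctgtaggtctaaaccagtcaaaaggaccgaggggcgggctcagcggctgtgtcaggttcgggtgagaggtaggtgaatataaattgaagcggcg
Hspa5: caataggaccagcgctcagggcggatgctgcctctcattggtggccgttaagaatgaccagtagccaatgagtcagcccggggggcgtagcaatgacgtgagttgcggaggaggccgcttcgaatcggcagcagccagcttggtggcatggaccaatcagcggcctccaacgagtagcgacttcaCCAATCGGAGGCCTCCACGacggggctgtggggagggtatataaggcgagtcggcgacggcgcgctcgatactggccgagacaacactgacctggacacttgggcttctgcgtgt

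Of the genes whose windows are printed, Creld2, which helps proteins fold in the reticulum, had ratios of 1.58, 2.67 and 4.95 in ARG hearts, against 0.926, 1.05 and 1.15 in NTG hearts (rose by 1.40 ± 0.21). Derl3, of the disposal route for misfolded proteins, had 1.39, 1.71 and 3 in ARG hearts, against 0.915, 1.08 and 1.13 in NTG hearts (rose by 0.84 ± 0.15). For both, no ARG heart was as low as any NTG heart. Calr, calreticulin, rose by 0.55 ± 0.14, at all 3 probe sets, with overlapping groups, and was not called after quantile normalization (adjusted p = 0.0735). Hspa5 had 1.06, 1.24 and 1.53 in ARG hearts, against 0.889, 0.987 and 1.11 in NTG hearts (change 0.34 ± 0.14, adjusted p = 0.158), with overlap. Edem1 and Pdia4, which sort and fold glycoproteins, rose by 1.02 ± 0.19 and 0.77 ± 0.12. Hspa5 was also called without the 3 arrays of low weight (adjusted p = 0.0181) and over the mean of its probe sets (adjusted p = 0.0368). Of the factors, Atf6 was at 0.14 ± 0.12 (adjusted p = 0.585) and Xbp1 at 0.22 ± 0.17 (adjusted p = 0.574). After quantile normalization 7 rose and 0 fell.

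Cytosolic chaperones and the proteasome gave few calls, and the autophagy and muscle ubiquitin lists gave more falls than rises. The shares that fell were 23.5% of the autophagy list and 23.8% of the ubiquitin list, against 7.1% of all genes. Of 66 cytosolic and nuclear heat shock genes 2 rose, 5 fell and 59 were not called. Hspa1l, an Hsp70 form best known from testis, had ratios of 1.41, 1.94 and 2.44 in ARG hearts, against 0.966, 1.05 and 1.19 in NTG hearts, and rose by 0.82 ± 0.12 (adjusted p = 3.93e-05), without overlap. The small heat shock gene Hspb1 rose by 0.43 ± 0.09, and the cochaperone Bag1 fell by 0.35 ± 0.09. Of 47 proteasome subunits 2 rose, 1 fell and 44 were not called, and of 21 ubiquitin ligases, conjugating and deubiquitinating enzymes of muscle 1 rose, 5 fell and 15 were not called. The atrophy ligase Fbxo32 was at -0.08 ± 0.14 (adjusted p = 0.841) and the muscle ligase gene Asb15 fell by 0.56 ± 0.12. Of 34 autophagy genes 3 rose, 8 fell and 23 were not called, with the starting kinase Ulk2 falling by 0.52 ± 0.12 and Atg10 by 0.55 ± 0.09. Ulk2 was not called over the mean of its probe sets (adjusted p = 0.166). After quantile normalization 0 rose and 7 fell among the autophagy genes, 2 rose and 3 fell among the heat shock genes and 1 rose and 2 fell among the ubiquitin genes.

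Genes of defence against oxidants were called in both directions. Of 44 metallothionein and glutathione genes 6 rose, 6 fell and 32 were not called: the glutathione peroxidases Gpx3 (0.86 ± 0.18) and Gpx1 (0.45 ± 0.10) and Gclm of glutathione synthesis (0.52 ± 0.11) rose, and the glutathione transferases Gstm7 (0.75 ± 0.10), Gsta3 (0.68 ± 0.10) and Gstk1 (0.51 ± 0.11) fell. Gpx3 had ratios of 1.56, 1.66 and 2.81 in ARG hearts, against 0.783, 1.05 and 1.27 in NTG hearts (adjusted p = 0.00149), with no overlap. Gclm was not called over the mean of its probe sets (adjusted p = 0.249). The metallothionein Mt1 was at -0.03 ± 0.12 (adjusted p = 0.929) at the probe set read here and was called higher over the mean of its 2 probe sets (adjusted p = 0.00911). Of 28 genes of superoxide, thioredoxin, peroxiredoxin and NADPH oxidase 5 rose, 3 fell and 20 were not called. The secreted dismutase Sod3 rose by 0.66 ± 0.15 and Ncf4, an NADPH oxidase subunit of phagocytes, by 0.77 ± 0.14, and Msrb2, a mitochondrial methionine sulfoxide reductase, fell by 0.89 ± 0.10. The metallothionein and glutathione genes that fell numbered as few as 3 when ARG replicate 4 or NTG replicate 2 was left out.

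In growth arrest and cell death (44 genes, 5 rose, 5 fell and 34 were not called) Plk2, a kinase that p53 induces, had ratios of 1.16, 2.06 and 3.56 in ARG hearts, against 0.927, 0.973 and 1.04 in NTG hearts, and rose by 1.09 ± 0.17 (adjusted p = 6.6e-05) at 1 of 2 probe sets. The cyclin-dependent kinase inhibitor Cdkn1c and the death gene Bcl2l11 fell by 0.63 ± 0.11 and 0.51 ± 0.12. Without ARG replicate 3 or 6, as few as 3 of the growth arrest genes fell. With quantile normalization 3 rose and 3 fell in this list. Of 53 genes of cyclins, DNA replication and mitosis 2 rose, 0 fell and 51 were not called: the centromere protein Cenpf rose by 1.25 ± 0.26 at 1 of 3 probe sets, and the proliferation marker Mki67 was at 0.36 ± 0.13 (adjusted p = 0.073, and 0.0394 without ARG replicate 6).

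Few of the main filament genes of heart were called, and other sarcomere genes, like all genes, fell more often than they rose. The shares that fell were 11.1% of myosin, 30% of thin filament and 16.7% of Z disc genes, against 7.1% of all genes. Those that rose were 0%, 5% and 8.33%, against 4.24%. Of 36 myosin genes 0 rose, 4 fell and 32 were not called, of 20 troponin and thin filament genes 1 rose, 6 fell and 13 were not called, and of 48 genes of the Z disc, titin and the intercalated disc 4 rose, 8 fell and 36 were not called. Myh7b, a myosin heavy chain close to the cardiac ones, had ratios of 0.316, 0.409 and 0.548 in ARG hearts, against 0.716, 0.852 and 1.15 in NTG hearts, and fell by 1.02 ± 0.12 (adjusted p = 1.47e-06). Each ARG heart was under each NTG heart. Tnnt1, slow skeletal troponin T, fell by 0.62 ± 0.12, and the Z disc protein Synpo2 by 0.73 ± 0.16 at the probe set read here, though not over the mean of its probe sets (adjusted p = 0.404). The caveolar protein Cavin4 fell by 0.52 ± 0.08. After quantile normalization 0 rose and 2 fell among the myosin genes and 2 rose and 6 fell among the Z disc genes. Of the main filament genes of heart, titin (Ttn) fell by 0.33 ± 0.09 at the probe set read here, though not over the mean of its probe sets (adjusted p = 0.987). The light chain Myl3 fell by 0.18 ± 0.05 but was not called after quantile normalization (adjusted p = 0.146) or without ARG replicate 4 or NTG replicate 1, 3, 4 or 6 (adjusted p between 0.0504 and 0.0703). The cardiac actin Actc1 was at 0.06 ± 0.06 (adjusted p = 0.675), the light chain Myl2 at -0.04 ± 0.05 (adjusted p = 0.768), Mybpc3 at -0.07 ± 0.08 (adjusted p = 0.724), troponin T, Tnnt2, at -0.36 ± 0.22 (adjusted p = 0.416) and troponin I, Tnni3, at -0.01 ± 0.05 (adjusted p = 0.956).

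Of 34 natriuretic peptide and fetal heart genes 8 rose, 4 fell and 22 were not called. The shares that rose and fell were 23.5% and 11.8%, against 4.24% and 7.1% of all genes. The members of this list named next are not among those that rose. With quantile normalization 3 rose and 3 fell. Npr2, a receptor for natriuretic peptides, fell by 0.53 ± 0.09. Myh7, the fetal myosin of the mouse ventricle, was at 0.42 ± 0.19 (adjusted p = 0.208), and Ankrd1 at 0.06 ± 0.16 (adjusted p = 0.909). With ARG replicate 4 or 5 or NTG replicate 3 or 5 left out, as few as 5 of the natriuretic and fetal genes rose. Of 51 cardiac transcription factors 3 rose, 5 fell and 43 were not called: Hdac9, which restrains growth of heart muscle, fell by 0.82 ± 0.17, Hopx by 0.50 ± 0.09 and Irx4, a factor of ventricular identity, by 0.35 ± 0.06, while Gata4 was at -0.02 ± 0.13 (adjusted p = 0.962). Of the rises in the transcription factor list, 0 were called after quantile normalization. The cardiac transcription factors that rose numbered 1 when NTG replicate 5 was left out.

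Of 86 potassium channel genes 0 rose, 6 fell and 80 were not called, and the share that fell (6.98%) was close to that of all genes (7.1%). Kcnip2, the partner subunit of the transient outward current, had ratios of 0.485, 0.566 and 0.698 in ARG hearts, against 0.868, 0.97 and 1.18 in NTG hearts, and fell by 0.80 ± 0.09 (adjusted p = 1.44e-06). The groups were apart. Kcnd3, a pore subunit of the same current, fell by 0.55 ± 0.11 at 1 of 4 probe sets, Kcnv2 by 0.81 ± 0.11, Kcnk2 by 0.70 ± 0.11 and Abcc9, the regulatory subunit of the ATP-sensitive channel, by 0.67 ± 0.14. The main pore gene Kcnd2 was at -0.29 ± 0.12 (adjusted p = 0.162, and 0.0347 without ARG replicate 1) at the probe set read here while 2 of its 4 probe sets were called lower, and Kcnj2 was at -0.08 ± 0.16 (adjusted p = 0.866). Of 66 genes of sodium and pacemaker channels, pumps and connexins 3 rose, 5 fell and 58 were not called: Ano10 fell by 1.45 ± 0.14 and the connexin Gjc1 by 0.53 ± 0.08, Popdc3, which binds cyclic AMP, rose by 0.80 ± 0.10 and Fxyd5, a regulator of the sodium pump, by 0.93 ± 0.14, and Gja1, the main ventricular connexin, was at 0.07 ± 0.08 (adjusted p = 0.734). The shares of that list that rose (4.55%) and fell (7.58%) were close to those of all genes (4.24% and 7.1%). After quantile normalization 3 rose and 3 fell among that list.

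Of 40 calcium cycling genes 1 rose, 7 fell and 32 were not called, and of 24 calcium channel subunits 0 rose, 3 fell and 21 were not called. Casq1, the skeletal calsequestrin, fell by 0.94 ± 0.20, Ryr3 by 0.53 ± 0.09, Trpc1 by 0.55 ± 0.11 and Camk2g by 0.48 ± 0.09. The core genes of each beat were not called at the probe sets read here. Atp2a2, the calcium pump, was at -0.07 ± 0.06 (adjusted p = 0.596), though 1 of its 6 probe sets was called lower. Pln was at -0.18 ± 0.10 (adjusted p = 0.335), Ryr2 at 0.24 ± 0.35 (adjusted p = 0.8) and Cacna1c at -0.12 ± 0.12 (adjusted p = 0.656). Without ARG replicate 4, 1 of the calcium channel subunits fell. After quantile normalization 0 rose and 1 fell among the channel subunits, and Casq1 was no longer called. Of 40 aquaporin, carbonic anhydrase and monocarboxylate carrier genes 5 rose, 5 fell and 30 were not called. Aqp4, a water channel, had ratios of 1.5, 2.74 and 4.39 in ARG hearts, against 0.809, 0.875 and 0.983 in NTG hearts, and rose by 1.62 ± 0.28 (adjusted p = 0.00021), while Aqp1, the water channel of capillaries and red cells, fell by 0.66 ± 0.13 and Car14 by 0.54 ± 0.11. With ARG replicate 1 left out, 3 of the genes of this list fell. The genes of this list that rose numbered as few as 3 when ARG replicate 4 or 6 or NTG replicate 2, 5 or 6 was left out. After quantile normalization 1 rose and 2 fell.

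Several output genes of the circadian clock fell and a repressor of them rose. Of 22 clock and output genes 1 rose, 6 fell and 15 were not called (median -0.12). Nfil3, which represses output genes, had ratios of 2.24, 2.91 and 3.85 in ARG hearts, against 0.922, 1.03 and 1.11 in NTG hearts, and rose by 1.49 ± 0.15 (adjusted p = 2.08e-07). No value was shared between the groups. The output activators Tef and Hlf fell by 0.81 ± 0.10 and 0.60 ± 0.12, and the clock genes Per1 and Ciart by 0.84 ± 0.17 and 0.57 ± 0.16. Ciart was not called without ARG replicate 2 (adjusted p = 0.0559) or without NTG replicate 6 (0.0551). Bhlhe41 (-0.04 ± 0.07, adjusted p = 0.859), Arntl (0.17 ± 0.10, adjusted p = 0.333), Nr1d1 (0.07 ± 0.14, adjusted p = 0.872) and Cry1 (0.09 ± 0.10, adjusted p = 0.728) were not called, except Arntl over the mean of its probe sets (called higher, adjusted p = 0.0121). The clock factors CLOCK and BMAL1 bind E-boxes, and the letters CACGTG, which read the same on both strands, stood in the RefSeq promoter windows of 5 of 19 members with a window (26.3%), against 1479 of 14452 genes (10.2%). Of the other lists searched, the immediate early and CREB-responsive genes held it in 9 of 31 (29%) and the reticulum genes in 10 of 51 (19.6%). The 5 clock members were Per1, Tef and Ciart, which fell, and Bhlhe41 and Cry1. Windows of the 2 with the larger falls are shown with the letters in capitals: Per1 at chr11:69098699-69098998 (plus strand) and Tef at chr15:81802423-81802722 (plus strand). Another annotated start of each has a window of its own that is not shown. The sources used here do not give the time of day at which hearts were taken.
Per1: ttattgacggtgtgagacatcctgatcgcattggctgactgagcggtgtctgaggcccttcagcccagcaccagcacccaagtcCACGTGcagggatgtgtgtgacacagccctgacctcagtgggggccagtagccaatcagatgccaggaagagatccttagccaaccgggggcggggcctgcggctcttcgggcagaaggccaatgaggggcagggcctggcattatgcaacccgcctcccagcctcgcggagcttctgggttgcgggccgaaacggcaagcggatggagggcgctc
Tef: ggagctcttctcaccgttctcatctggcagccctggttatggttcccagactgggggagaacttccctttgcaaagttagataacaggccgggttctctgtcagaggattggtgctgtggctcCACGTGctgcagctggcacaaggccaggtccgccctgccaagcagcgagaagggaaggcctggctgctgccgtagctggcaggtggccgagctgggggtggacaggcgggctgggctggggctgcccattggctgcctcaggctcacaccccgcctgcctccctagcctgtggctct

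Immediate early genes gave a mixed result. Of 40 immediate early and CREB-responsive genes 6 rose, 2 fell and 32 were not called. Dusp5, a phosphatase of ERK, had ratios of 1.39, 1.63 and 2.03 in ARG hearts, against 0.875, 1.02 and 1.04 in NTG hearts, and rose by 0.77 ± 0.10 (adjusted p = 1.03e-05), and Jun fell by 0.60 ± 0.10, both without overlap. Fos was at -0.10 ± 0.40 (adjusted p = 0.94). After quantile normalization 1 rose and 2 fell among this list. Without ARG replicate 6 or NTG replicate 1 or 3, as few as 3 of the immediate early genes rose.

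**Figure D5:**
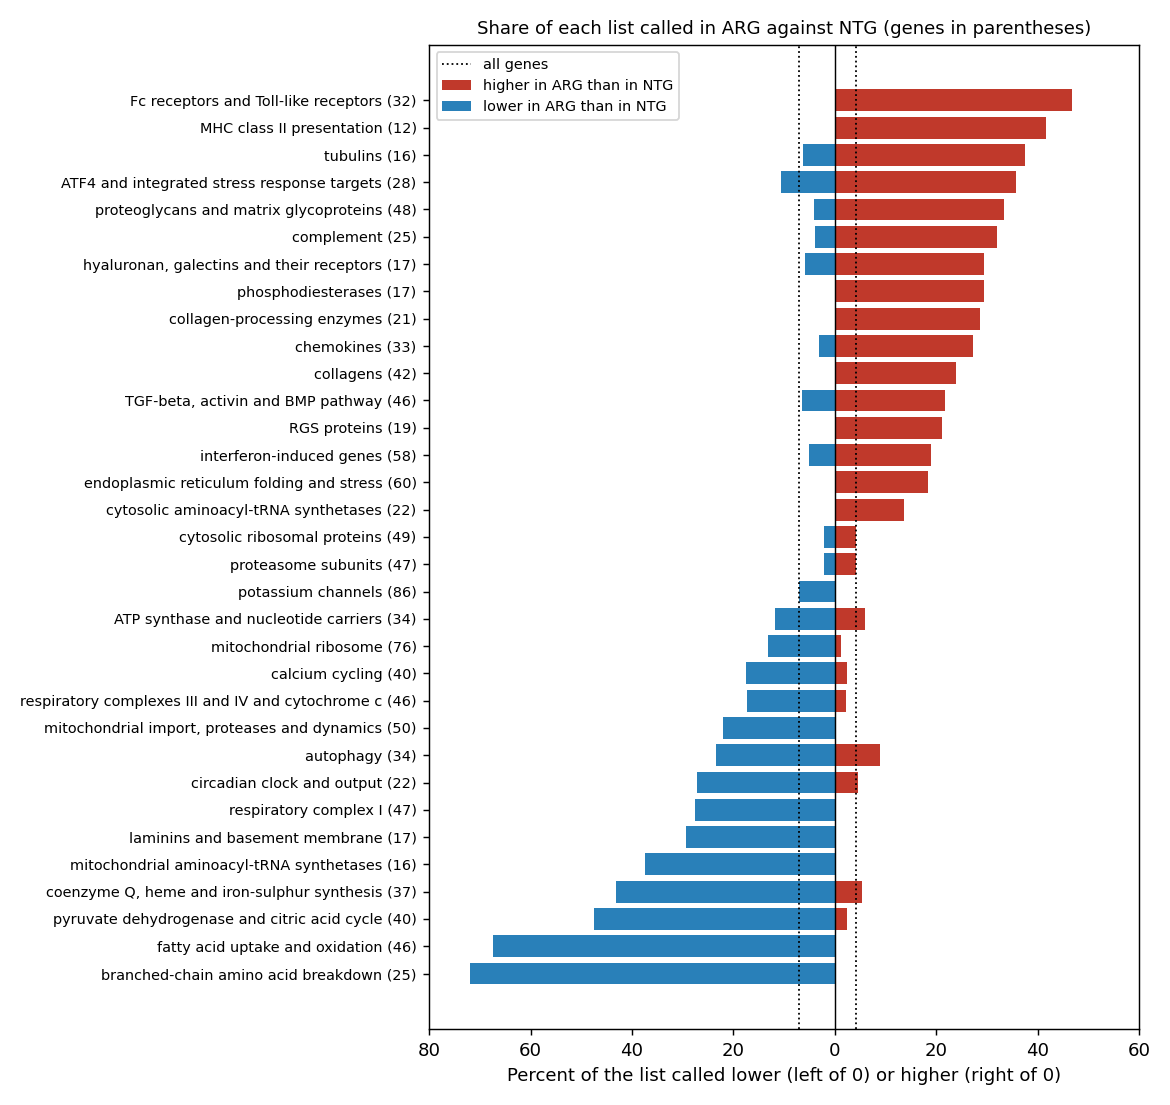
Percent of the members of 33 gene lists called higher (right of 0) and lower (left of 0) in ARG hearts, with dotted lines at the shares of all genes (4.24% and 7.1%). Branched-chain amino acid breakdown (72%) and fatty acid oxidation (67.4%) have the longest bars to the left, and Fc and Toll-like receptors (46.9%) and MHC class II genes (41.7%) the longest to the right.

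Outside all lists, 24 genes were taken, the 12 that rose most and the 12 that fell most of those called alike within both sets. Rad51b, of DNA strand repair, rose by 4.30 ± 0.31. Dct, which acts in melanin synthesis, had ratios of 2.57, 3.93 and 5.03 in ARG hearts, against 0.879, 0.984 and 1.21 in NTG hearts, and rose by 1.88 ± 0.20 (adjusted p = 5.22e-07). The groups did not overlap. Cdo1, which oxidizes cysteine, rose by 1.68 ± 0.24, the membrane glycoprotein gene Cd24a by 1.57 ± 0.19, the lipocalin Apod by 1.54 ± 0.16 and Lpar3, a receptor for lysophosphatidic acid, by 1.37 ± 0.35. The leukocyte proteins Cd52 and Cd53 rose by 1.24 ± 0.14 and 1.14 ± 0.15, as the macrophage markers did in the same hearts. Rtl3, Ctnnal1 and Lman1l rose by 1.17 ± 0.15, 1.17 ± 0.21 and 1.17 ± 0.16, and 2900052N01Rik, an unnamed transcript, by 1.59 ± 0.32. Lpar3 was no longer called after quantile normalization.

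Among the falls outside the lists, Thrsp, a regulator of fat synthesis, had ratios of 0.17, 0.26 and 0.373 in ARG hearts, against 0.831, 0.976 and 1.03 in NTG hearts, and fell by 1.88 ± 0.22 (adjusted p = 1.38e-06). The groups did not overlap. The matrix protein gene Frem2 fell by 1.55 ± 0.16, the muscle ligase subunit Asb5 by 1.43 ± 0.16, the semaphorin receptor Plxnb1 by 1.41 ± 0.14, and Prkab2, a subunit of the energy sensor AMPK, by 1.33 ± 0.13. The transcripts of Bex1, Lgi1 and Neat1 fell by 2.99 ± 0.31, 2.82 ± 0.29 and 1.64 ± 0.31, and Neat1 was no longer called after quantile normalization. Fah, the last enzyme of tyrosine breakdown, fell by 1.26 ± 0.17 and Doc2g by 1.29 ± 0.12. Genes of RNA handling were also there, with Hnrnpa2b1 falling by 1.67 ± 0.27 at 4 of 4 probe sets and Rsrp1 by 1.33 ± 0.19 at 3 of 3 probe sets.

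Whether a change differed between the receptor forms was asked by testing ARG against GLY itself, which called 345 of 18193 genes (1.9%), 180 (0.989%) higher and 165 (0.907%) lower in ARG hearts. The comparison shares its ARG hearts with the one above, so its values for named genes are given only as its own test. Immune and matrix lists held several of the genes higher in ARG than in GLY: 10 of 32 Fc and Toll-like receptors, 5 of 33 chemokines, 7 of 48 proteoglycans and glycoproteins, 6 of 19 macrophage markers and 6 of 60 reticulum folding genes. Of the fatty acid list 6 of 46 were lower in ARG than in GLY, and of the branched-chain and citric acid cycle lists 0 and 0. After quantile normalization 58 probe sets were called between ARG and GLY, against 678 without it (1.51% of 45037), so these counts depend on the scaling. Between ARG and AC5 hearts 2220 of 45037 probe sets (4.93%) were called, a comparison not followed further here.

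By gene, the ARG minus GLY difference of Ctss was 1.33 ± 0.20 (adjusted p = 0.000669), that of Ccl9 1.57 ± 0.21 (adjusted p = 0.00018), that of Tlr4 1.24 ± 0.25 (adjusted p = 0.00751) and that of Tnfaip6 0.63 ± 0.12 (adjusted p = 0.00448). On the deposited scale these immune genes were higher in ARG than in GLY hearts. Whether each gene's call against GLY holds after quantile normalization is not given here. GLY replicates 1 and 3 had the lowest array weights of the series (0.354 and 0.312). On the lower side the difference was -0.62 ± 0.10 for Ehhadh (adjusted p = 0.00159), -0.44 ± 0.09 for Mrps25 (adjusted p = 0.0123), -0.78 ± 0.14 for Ano10 (adjusted p = 0.00386) and -0.43 ± 0.10 for Tef (adjusted p = 0.0279). For others the difference was not called, as for Ivd (-0.30 ± 0.09, adjusted p = 0.11), Lama2 (-0.21 ± 0.07, adjusted p = 0.146), Grk5 (0.50 ± 0.16, adjusted p = 0.12) and Asns (0.88 ± 0.25, adjusted p = 0.073), which does not show that the forms act alike.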

How the data were processed

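RNA of 24 mouse hearts was read on as many arrays of the same Affymetrix design. The authors deposited 1 table of 45101 probe sets, made with RMA per the submitters' processing notes. The sources used here give no version of RMA. From its values the table holds a linear ratio of each probe set to a control level, as the authors deposited it, since all values are positive and centre near 1; neither the scale nor the division by a control level is stated. No brightness or detection value came with these ratios, so no filter on dim probe sets could be set.

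The ratios were taken to log2 with no further normalization, 64 control probe sets were left out, and limma (3.58.1, R 4.3.3) was fitted to 45037 probe sets over all 24 arrays with genotype as the only term. Within a set of replicates the fit took the 12 arrays of that set from all 4 genotypes, with genotype as the only term. The test of the difference between the sets took all 24 arrays, with 1 mean per genotype and set. Standard errors are limma's moderated ones, and p-values were adjusted by Benjamini-Hochberg over all probe sets tested. The fit was tested on simulated data. Platform annotation named 34945 probe sets with 1 gene, 932 with several and 9160 with none, and symbols were updated through Entrez identifiers for 18032 of 18193 genes. A gene was read at its plain _at probe set before _a_at, _s_at and _x_at, then at the lowest number.

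The 95 lists hold 2885 genes, and 106 further list names matched no probe set assigned to a single gene. The members and lists were chosen with earlier results of these data known. The naming rule took from each list the 2 called members with the largest rise and the 2 with the largest fall, a few fixed members, and 12 rises and 12 falls outside the lists, 320 genes in all. Of the 296 genes named in the text, 191 come from that rule and 105 were chosen after their values were seen. The endogenous receptor gene was not analysed here.

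The labels number hearts 1 to 6 in every genotype. Deviations of ARG and NTG hearts with the same number from their group means correlated between -0.0472 and 0.0184, so the numbers were not taken as pairs. Alternatives were quantile normalization, centring, array weights, other sets of arrays, a robust prior, other choices of probe set, a minimum fold and leaving out each heart. Tables were handled with numpy 2.4.6 and pandas 2.3.3 in Python 3.11.15, and plots drawn with matplotlib 3.10.9.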

Additional observations from a re-analysis of the deposited data

Results flagged for a closer look

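In 592 groups of 6 hearts, 1 for each named gene and genotype, the heart at either end was set against the rest, and in 24 of them it stood apart by more than the critical gap of Dixon's test. Chance flags about 1 in 20 groups. Values are log2 ratios.

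ARG replicate 4 stood apart for 6 genes: it was highest for Acta2 (0.80), Gclm (1.12) and Pdia4 (1.49) and lowest for Ctf1 (-1.03), Hopx (-0.86) and Rxrg (-0.89). ARG replicate 1 was nearest to the NTG hearts for Ehhadh (-0.68), Gpx1 (0.27) and Pgam1 (0.24). ARG replicate 2 was furthest from them for Ccl2 (1.37), Hlf (-0.91) and Irf3 (-1.01), and ARG replicate 3 for Doc2g (-1.46), while ARG replicate 6 was the highest ARG heart for Bckdha (-0.50). Each of these genes other than Acta2 was called with any 1 heart left out.

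Among the NTG hearts, replicate 4 was the lowest for 6 genes, Dbt (-0.34), Etfdh (-0.11), Krt10 (-0.55), Neat1 (-1.60), Nupr1 (-0.67) and Synpo2 (-0.47). The lowest NTG heart was replicate 6 for Asns (-0.51), replicate 3 for Nrp1 (-0.15) and replicate 5 for Timp4 (-0.58). For Tgif1 the highest was replicate 1 (0.09). All 10 genes were called with any 1 heart left out.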

How the results depend on the processing

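Probe sets called between ARG and NTG numbered 4355, against 2400 after quantile normalization, 2191 with 1 probe set per gene and 1316 with a minimum change of 1.5-fold. Of these 1818 were higher, against 865, 823 and 592 under those 3 settings and 2754 without the 3 arrays of low weight, and 2537 were lower, against 1535, 1368 and 724. The share of calls that were higher was 41.7%, 36% after quantile normalization and 43.4% after centring, and the median change of all probe sets was 0.00421, 0.00696 and 0.0101. Leaving out 1 heart gave 3490 to 4533 calls, 1367 to 2135 higher and 2115 to 2462 lower. Within replicates 1 to 3 the count was 572 after quantile normalization and 493 (without ARG replicate 3) to 1244 with 1 heart left out, and within replicates 4 to 6 it was 443 and 1155 (without ARG replicate 4) to 2793. With array weights 1 probe set differed between the sets, against 0. ARG against GLY gave 58 in place of 678 after quantile normalization, and ARG against AC5 889 in place of 2220.

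With the replicate number as a block 4551 probe sets were called, 1930 higher and 2621 lower (1274 and 2203 within the sets, 735 against GLY and 2293 against AC5), and no named gene changed its call. The numbers do not pair the hearts: 0 of 6 ARG hearts correlated best with the NTG heart of its own number. Of 242 called genes in the text, 7 were not called after quantile normalization, 12 were not with the mean over a gene's probe sets, and Ciart and Myl3 were not without some hearts. Of 54 genes not called, 8 were called in the direction given with that mean, 6 without the 3 arrays of low weight, 5 with array weights, and 2 each with genotype weights and with only ARG and NTG arrays. The mean over probe sets turned Mt1 from -0.03 to 0.35. For lists, 47 of 2185 alternative medians moved. For these shifts the cause was not tested. The number of hearts and the unknown brightness limit what can be called.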

Other observations

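Several families not described above gave single changes. Of 24 integrins 2 rose, 2 fell and 20 were not called: Itgb2 and Itgax, chains of the integrins of white blood cells, rose by 0.74 ± 0.10 and 0.45 ± 0.08, and Itgb6 and Itga8 fell by 0.64 ± 0.16 and 0.45 ± 0.12. Itga8 was not called after quantile normalization. Of 39 serpins 5 rose, 0 fell and 34 were not called, among them Serpinb1a, an inhibitor of neutrophil proteases, which had ratios of 1.39, 1.88 and 2.8 in ARG hearts, against 0.93, 0.983 and 1.13 in NTG hearts, and rose by 0.90 ± 0.13 (adjusted p = 1.77e-05). The groups did not overlap. Serping1, the inhibitor of C1 of complement, rose by 0.65 ± 0.12.

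Of 7 genes of ketone body use 2 rose, 2 fell and 3 were not called: Oxct1, which starts ketone body oxidation, fell by 0.66 ± 0.17, and Bdh1 was at -0.34 ± 0.16 (adjusted p = 0.214). After quantile normalization 0 rose and 2 fell, and both falls were also called with any 1 heart left out. Of 12 smooth muscle and pericyte markers 0 rose, 3 fell and 9 were not called, and of 16 lung, thymus and skeletal muscle markers 0 rose, 1 fell and 15 were not called. None of the 6 red blood cell markers was called (limma, adjusted p at or above 0.05).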
